A study of Mus musculus with 55 samples.

Results

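The type 2 diabetic effect on the infarcted left ventricle of mice was compared between day 28 and day 7 after infarction. The effect at a day is the difference between type 2 diabetic and non-diabetic libraries of that day, and the comparison is the effect at day 28 minus the effect at day 7. Members were chosen by sample title, which gave 37 of the 55 libraries of the series: 8 non-diabetic and 8 type 2 diabetic libraries at day 7, and 11 non-diabetic and 10 type 2 diabetic libraries at day 28. The other 18 libraries are type 1 diabetic. All mice were C57BL/6J, a common inbred strain, and the infarct was made in all groups by tying off a coronary artery for good, so the controls are infarcted as well. The type 2 diabetic libraries carry lo_STZ_HFFD in their names, and the labels give no further account of how diabetes was produced, nor the sex or age of the mice. The series' design text names day 7, and day 28 rests on the titles and the time labels.

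After a coronary artery is closed, dying heart muscle is cleared by neutrophils, monocytes and macrophages, and fibroblasts then fill the gap with collagen, which matures into a scar over the following weeks. Interferons are signal proteins of antiviral defence that switch on a shared set of genes through transcription factors that include the IRF family, and cells of the injured heart can run this programme without a virus. Type 2 diabetes combines insulin resistance with a high supply of glucose and fatty acids, and fatty acids activate the PPAR receptors, which raise genes of lipid handling in heart muscle.

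Levels are in CPM, counts scaled to a common library size after TMM normalisation, or in log2 CPM. Total counts per library were 10756242 to 46812053 in non-diabetic and 30812809 to 48187379 in type 2 diabetic tissue at day 7. At day 28 they were 57979612 to 84380994 and 48105347 to 92869315. The days were sequenced in separate projects, per the library names. A change between days within one group and a change between projects therefore cannot be told apart. Each type 2 diabetic effect lies within 1 project, but the difference of the effects also compares the projects. Day and project cannot be told apart in that difference. The labels do not state that replicates are separate animals, so the p-values rest on the scatter among the libraries of a group, part of which may be technical. Type 2 diabetic replicate 4 at day 28 stands apart: its mean level over the B cell markers was 6.80 log2 CPM against 1.59 to 3.43 in the other libraries of its group, and its mean over the cardiomyocyte markers was the lowest of that group, at 8.99. Non-diabetic replicate 4 at day 7 has the lowest depth. The tissue label was met: the means of the 20 cardiomyocyte markers lay between 7.27 and 11.62 log2 CPM, and those of the 15 macrophage markers between 5.12 and 8.05. In bulk tissue, fewer cells of a type and less RNA per cell cannot be told apart.

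Of 19531 genes tested, 1134 (5.81%) were called at day 7, 1931 (9.89%) at day 28 and 240 (1.23%) for the difference between the days. A call is an adjusted p at or under 0.05 in edgeR's quasi-likelihood test, and SE is the standard error of a log2 fold change. At day 7 the calls split into 548 genes that rose and 586 that fell in type 2 diabetic tissue, and at day 28 into 1284 that rose and 647 that fell. The day 7 split was 600 and 449 with the replicate block and 760 and 559 with each day fitted alone, and the day 28 split was 1297 and 1101 in limma-voom. Called at both days in the same direction were 262 genes that rose (1.34% of genes tested) and 60 that fell (0.307%). The 262 are 47.8% of the day 7 rises and 20.4% of the day 28 rises, and the 60 are 10.2% and 9.3% of the falls. A further 13 genes (0.0666%) were called at both days in opposite directions. The difference was positive in 166 of its calls (0.85%) and negative in 74 (0.379%). Of the 166, 153 had a lower estimate in type 2 diabetic tissue at day 7 and a higher one at day 28, and of the 74, 68 had the reverse. Choosing genes by a large difference favours such opposite signs. Some libraries within a group begin their names with the same number, whose meaning the labels leave out. Adding up the counts of such libraries left 4 to 6 units per group, and then 2 genes were called for the difference and 108 at both days, of which 108 rose and 0 fell. No first number was shared between the type 2 diabetic and non-diabetic libraries of a day. Whatever it marks therefore cannot be told apart from the type 2 diabetic effect of that day, with or without summing.

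**Figure D1:**
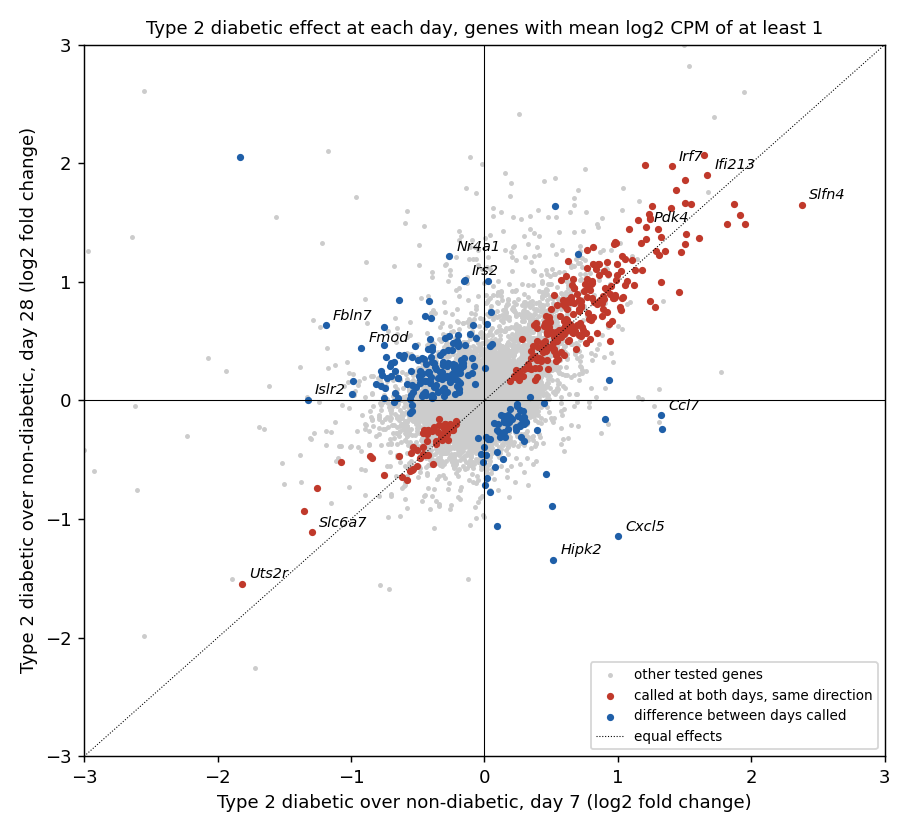
Log2 fold change of type 2 diabetic over non-diabetic tissue at day 7 (x axis) and at day 28 (y axis), 1 point per gene whose mean log2 CPM reached 1. Red points are genes called at both days in the same direction, blue points are genes whose difference between the days was called, and the dotted line marks equal effects. Points more than 3 log2 units from 0 lie outside the axes. The red points Irf7, Slfn4 and Ifi213 lie at 1.40 or above on both axes, and most blue points lie in the upper left, such as Fbln7 at -1.19 and 0.63.

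Genes that interferons induce rose at both days. Of 30 such genes, 29 rose at day 7 and 30 at day 28, with medians of 0.93 and 1.08 on the log2 scale, against medians of -0.01 and -0.02 over all genes tested and shares of 2.81% and 6.57% that rose. Irf7, the transcription factor that amplifies the interferon response, ranged over 36.3 to 57.4 CPM (median 53.3) in the non-diabetic libraries and 113 to 182 CPM (median 121) in the type 2 diabetic libraries at day 7. At day 28 it ranged over 28.6 to 45.2 CPM (median 33.5) in the non-diabetic libraries and 79.3 to 239 CPM (median 122) in the type 2 diabetic libraries, so that the groups did not overlap at either day. The log2 fold change of Irf7 was 1.40 (SE 0.16, adjusted p = 9.97e-07) at day 7 and 1.98 (SE 0.14, adjusted p = 2.52e-12) at day 28. Its difference between the days was 0.57 (SE 0.21, adjusted p = 0.163), the largest in the list, whose differences ran from -0.29 to 0.57 with a median of 0.17 and no call.

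Oas3 and Oas2 make the messenger that sets off the breakdown of viral RNA. Oas3 spanned 5.21 to 14.3 CPM (median 11) in the non-diabetic libraries and 22.4 to 38.7 CPM (median 27.6) in the type 2 diabetic libraries at day 7. At day 28, Oas3 measured 1.76 to 5.19 CPM (median 2.89) in the non-diabetic libraries and 6.54 to 17.9 CPM (median 12.5) in the type 2 diabetic libraries. All type 2 diabetic libraries lay above all non-diabetic ones at each day, which held for 1.34% of genes tested at day 7 and 0.328% at day 28. The log2 fold changes of Oas3 were 1.50 (SE 0.21, adjusted p = 2.83e-05) and 1.85 (SE 0.19, adjusted p = 1.18e-08). Oas2 had 1.25 (SE 0.16) and 1.64 (SE 0.14) and no overlap at either day. Ifit3, a protein that binds foreign RNA, measured 28.8 to 58 CPM (median 39.3) in the non-diabetic libraries and 62.5 to 96 CPM (median 80.4) in the type 2 diabetic libraries at day 7. At day 28, Ifit3 measured 32.5 to 71.1 CPM (median 46.2) in the non-diabetic libraries and 75 to 174 CPM (median 92) in the type 2 diabetic libraries, again without overlap. Mx1 and Zbp1, an antiviral GTPase and a sensor of Z-form nucleic acid, rose by 0.99 and 1.24 at day 7 and by 1.01 and 1.54 at day 28. Stat2 was the 1 member of the list without a call at day 7, at 0.36 (SE 0.12, adjusted p = 0.0587).

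The promoter windows of 3 of these genes are shown because they hold the core of the interferon-stimulated response element, a DNA sequence bound by proteins of the IRF family. Each window runs from 250 bases before to 50 after the annotated start, 5′ to 3′ on the strand of the gene, from RefSeq on GRCm38.p6, which is not the build of the counts. Capitals mark the core searched for, which is GAAA, any 2 bases and GAAA, on either strand, and overlapping matches run together. Oas3 lies at chr5:120777610-120777909 on the minus strand, Isg15 at chr4:156200769-156201068 on the minus strand and Ifit3 at chr19:34583279-34583578 on the plus strand.
Oas3: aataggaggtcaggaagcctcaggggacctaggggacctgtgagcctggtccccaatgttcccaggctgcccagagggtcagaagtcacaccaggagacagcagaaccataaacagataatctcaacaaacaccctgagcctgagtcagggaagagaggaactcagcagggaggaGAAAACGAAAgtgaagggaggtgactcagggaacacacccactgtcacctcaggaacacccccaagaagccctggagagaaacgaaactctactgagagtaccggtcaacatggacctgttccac
Isg15: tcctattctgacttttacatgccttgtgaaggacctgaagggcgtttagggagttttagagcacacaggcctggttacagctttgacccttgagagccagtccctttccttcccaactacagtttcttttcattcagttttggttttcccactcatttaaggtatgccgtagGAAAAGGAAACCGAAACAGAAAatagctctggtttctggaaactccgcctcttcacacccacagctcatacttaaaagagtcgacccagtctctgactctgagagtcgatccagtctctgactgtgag
Ifit3: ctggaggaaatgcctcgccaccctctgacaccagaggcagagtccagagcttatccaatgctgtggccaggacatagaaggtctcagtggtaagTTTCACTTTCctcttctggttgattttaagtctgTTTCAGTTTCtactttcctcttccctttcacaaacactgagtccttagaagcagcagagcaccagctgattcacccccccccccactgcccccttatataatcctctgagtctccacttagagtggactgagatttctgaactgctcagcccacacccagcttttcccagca
Of 23 windows found for 20 of the 30 list genes, 12 (52.2%) hold the motif, against 1131 of all 32851 windows (3.44%). For the genes that rose at both days the share was 23.8% of 240 windows, and for the genes with a positive difference it was 1.14% of 175. The genes that rose at both days include 29 of the 30 list genes, so the 52.2% and the 23.8% share windows. The share outside the list was not counted. The windows of Irf7 and Ifi44 do not hold these letters. A match is a stretch of letters and not a shown binding site. Isg15, a ubiquitin-like protein that is coupled to others during the interferon response, rose by 1.02 (SE 0.19, adjusted p = 0.000756) at day 7 and by 1.09 (SE 0.16, adjusted p = 1.46e-05) at day 28, with levels of 10.6 to 34.5 CPM (median 21.8) in the non-diabetic libraries and 34.4 to 56.8 CPM (median 42) in the type 2 diabetic libraries at day 7. At day 28, Isg15 measured 10.4 to 23.9 CPM (median 15.1) in the non-diabetic libraries and 22.6 to 56.8 CPM (median 27.8) in the type 2 diabetic libraries.

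The largest rises held at both days included genes of other interferon-inducible families. Among the 10 that the naming rule took, Slfn4, a Schlafen gene of myeloid cells, spanned 3.8 to 11.3 CPM (median 8.08) in the non-diabetic libraries and 20.6 to 79 CPM (median 29) in the type 2 diabetic libraries at day 7. At day 28, Slfn4 measured 1.14 to 4.58 CPM (median 1.84) in the non-diabetic libraries and 3.46 to 11.7 CPM (median 6.89) in the type 2 diabetic libraries. The groups were apart at day 7, and at day 28 7 of the 10 type 2 diabetic libraries lay above all non-diabetic ones. Its log2 fold changes were 2.38 (SE 0.30, adjusted p = 4.5e-06) and 1.65 (SE 0.26, adjusted p = 3.64e-05). Ifi213, a member of the interferon-inducible DNA sensors, was 1.67 (SE 0.19) and 1.91 (SE 0.17), and Ifi206 of the same family 1.64 (SE 0.24) and 2.07 (SE 0.21). Oas1g was 1.87 (SE 0.21) and 1.65 (SE 0.18), Slfn1 1.55 (SE 0.23) and 1.66 (SE 0.20), and Ifi44 1.44 (SE 0.19) and 1.78 (SE 0.17). These families hold near-identical copies whose reads the counting could split, so the value of a single copy is uncertain. Gpr171, a receptor of lymphocytes, was 1.50 (SE 0.40) and 1.67 (SE 0.34). Of 18 genes tied to interferon gamma, 9 rose at day 7 and 12 at day 28, and all 9 were among the 12. Cxcl9 and Cxcl10, chemokines that attract T cells, rose by 1.47 and 1.02 at day 7 and by 1.25 and 0.78 at day 28.

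**Figure D2:**
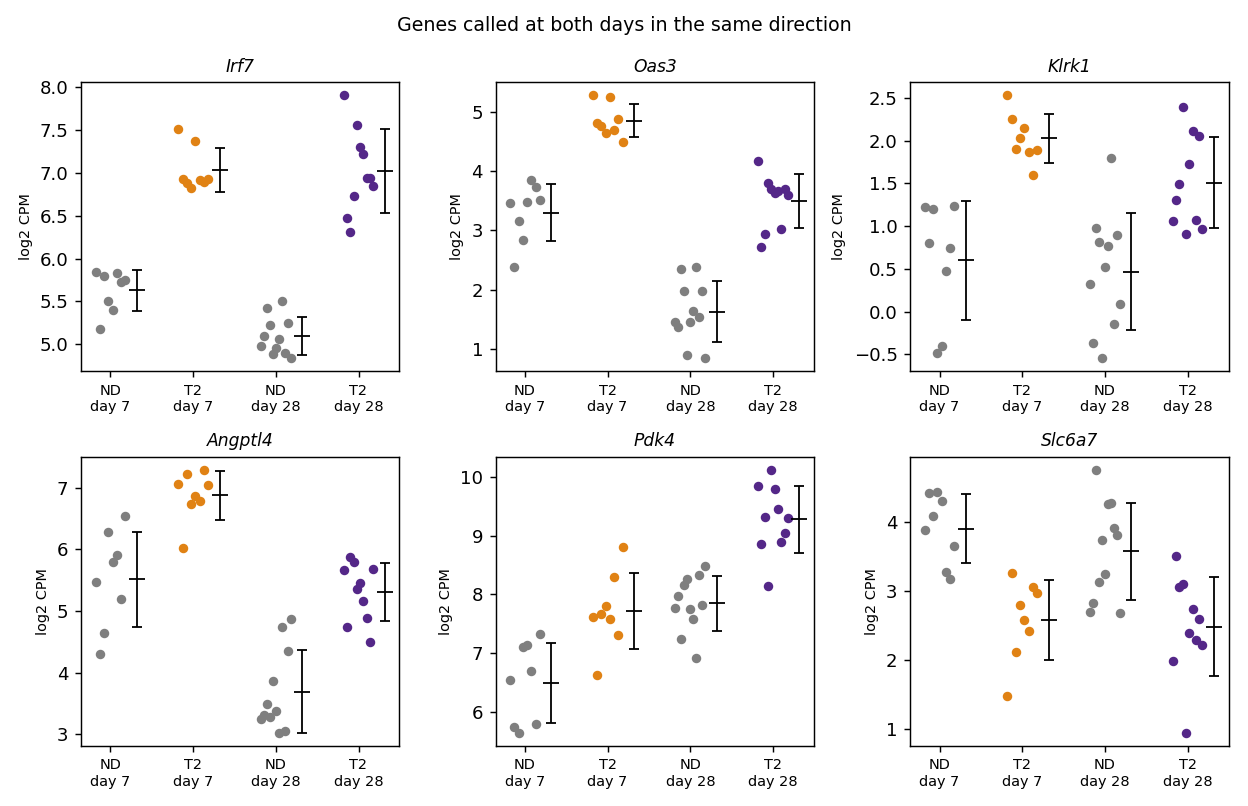
Level in log2 CPM of 6 genes called at both days in the same direction, 1 point per library, with the mean and SD of each group beside the points (ND, non-diabetic, n = 8 and 11; T2, type 2 diabetic, n = 8 and 10). Irf7 and Oas3 show no overlap between the groups of a day, while Klrk1 does not overlap at day 7 and overlaps at day 28.

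Markers of cytotoxic lymphocytes rose at both days as well. Of 13 markers of natural killer cells and killer T cells, 11 rose at day 7 and 10 at day 28, 9 of them at both, with medians of 1.18 and 1.06. Klrk1, the activating receptor NKG2D, spanned 0.677 to 2.31 CPM (median 1.67) in the non-diabetic libraries and 2.98 to 5.74 CPM (median 3.88) in the type 2 diabetic libraries at day 7. At day 28, Klrk1 measured 0.648 to 3.44 CPM (median 1.4) in the non-diabetic libraries and 1.84 to 5.22 CPM (median 2.6) in the type 2 diabetic libraries. All type 2 diabetic libraries were above the non-diabetic ones at day 7, and 3 of 10 were at day 28. Its log2 fold changes were 1.32 (SE 0.29, adjusted p = 0.00419) and 1.00 (SE 0.25, adjusted p = 0.0068). Gzmb, a protease that killer cells inject into targets, was 1.66 (SE 0.39) and 1.35 (SE 0.34) at low levels, at most 2.76 CPM in any library, and Ccl5 was 1.05 (SE 0.31) and 1.19 (SE 0.27). The receptor genes Klrb1c and Klre1 rose by 1.53 and 1.66 at day 7 and by 1.31 and 1.41 at day 28. None of the 13 differences was called, and they ran from -0.90 to 0.36. Without type 2 diabetic replicate 4 at day 28, 11 rose at day 7 and 9 at day 28. With the summed libraries, 7 and 3 were called.

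Of 20 T cell genes, 3 rose at day 7 and 18 at day 28, with medians of 0.90 and 1.19, a median difference of 0.33 and no called difference. Without type 2 diabetic replicate 4 at day 28 the counts were 11 at day 7 and 5 at day 28, the day 28 median was 0.72 and the median difference was -0.17. Cd3d and Cd3e, parts of the T cell receptor complex, were 1.22 (SE 0.38) and 1.31 (SE 0.41) at day 7 and 1.32 (SE 0.32) and 1.37 (SE 0.34) at day 28. Lck, the kinase of that receptor, was 1.10 (SE 0.38, adjusted p = 0.0708) at day 7 and 1.22 (SE 0.32, adjusted p = 0.0119) at day 28. Without that library the day 28 values were 0.85 for Cd3d (adjusted p = 0.0427), 0.77 for Cd3e (adjusted p = 0.07) and 0.61 for Lck (adjusted p = 0.115), so the calls of Cd3e and Lck were lost. Il2rb, a subunit of the interleukin 2 receptor, was 0.97 (SE 0.30) and 1.33 (SE 0.26). Genes of antigen presentation on class II molecules gave 1 call at day 7 and 9 at day 28 of 10, and 1 and 5 without that library, again with no called difference. Cd74, the chaperone of class II molecules, spanned 102 to 475 CPM (median 402) in the non-diabetic libraries and 434 to 723 CPM (median 597) in the type 2 diabetic libraries at day 7. At day 28 it spanned 254 to 1016 CPM (median 403) in the non-diabetic libraries and 538 to 1901 CPM (median 754) in the type 2 diabetic libraries, the highest value being that of replicate 4. Its log2 fold change was 0.63 (SE 0.25, adjusted p = 0.135) at day 7 and 0.95 (SE 0.22, adjusted p = 0.00433) at day 28, and H2-Aa gave 0.64 (SE 0.25, adjusted p = 0.115) and 0.90 (SE 0.22, adjusted p = 0.00534).

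Monocyte genes gave 4 calls at day 7 and 7 at day 28 of 14, all rises, 3 of them at both days. Their medians were 0.73 and 0.97, with a median difference of -0.05. Without type 2 diabetic replicate 4 at day 28, the day 28 median was 0.61 and the median difference -0.451. Ly6c2, the surface protein of inflammatory monocytes, spanned 1.98 to 3.57 CPM (median 2.44) in the non-diabetic libraries and 6.14 to 16.9 CPM (median 8.17) in the type 2 diabetic libraries at day 7. At day 28, Ly6c2 measured 0.756 to 4.58 CPM (median 1.87) in the non-diabetic libraries and 2.34 to 18.9 CPM (median 4.85) in the type 2 diabetic libraries. The highest value was that of replicate 4. The groups were apart at day 7, and 6 of 10 type 2 diabetic libraries were above all non-diabetic ones at day 28. Its log2 fold changes were 1.92 (SE 0.36, adjusted p = 0.00114) and 1.57 (SE 0.31, adjusted p = 0.000802). Plac8 was 1.20 (SE 0.24) and 1.98 (SE 0.22), without overlap at either day, and Ms4a4c 1.82 (SE 0.28) and 1.49 (SE 0.24). Ccr2, the receptor that brings monocytes into tissue, was 0.72 (SE 0.23, adjusted p = 0.0548) and 0.33 (SE 0.20, adjusted p = 0.327). Macrophage markers rose in 2 of 15 at day 7 and 8 of 15 at day 28, among them Fcgr1, an antibody receptor, by 0.79 and 0.52. The median of the macrophage markers at day 28 was 0.42, and 0.34 without type 2 diabetic replicate 4. The mean level of the monocyte list overlapped between the groups at both days. It ran from 3.02 to 4.03 log2 CPM in non-diabetic and 4.02 to 5.00 in type 2 diabetic libraries at day 7, and from 1.04 to 2.50 and 1.70 to 4.12 at day 28. The interferon list ran from 4.37 to 4.95 and 5.36 to 5.87 at day 7, and from 3.96 to 4.65 and 4.84 to 5.91 at day 28, without overlap. The macrophage list did not overlap at day 7 either (7.06 to 7.75 and 7.78 to 8.05). Nor did the natural killer and killer T cell list (-1.19 to 0.07 and 0.58 to 1.22) or the T cell list (-0.26 to 0.62 and 0.82 to 1.30). At day 28 each of these leukocyte lists overlapped. The neutrophil, B cell, dendritic cell, class II and tissue-resident macrophage lists overlapped at both days. The part of leukocyte number in the interferon result was not tested.

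Genes of cell division rose in 10 of 30 at day 7 and in 24 of 30 at day 28, 6 at both, with medians of 0.44 and 0.65. Top2a, the enzyme that untangles replicated DNA, spanned 30.0 to 97.2 CPM (median 53.5) in the non-diabetic libraries and 68.9 to 114 CPM (median 88.3) in the type 2 diabetic libraries at day 7. At day 28, Top2a measured 5.67 to 11.5 CPM (median 9.43) in the non-diabetic libraries and 8.98 to 25.3 CPM (median 18.6) in the type 2 diabetic libraries. Its log2 fold changes were 0.67 (SE 0.20, adjusted p = 0.0442) and 0.94 (SE 0.18, adjusted p = 0.000585). Cenpe and Aurka, of the mitotic spindle, were 0.67 (SE 0.18) and 0.56 (SE 0.17) at day 7 and 0.60 (SE 0.16) and 0.60 (SE 0.15) at day 28. Mki67 was 0.56 (SE 0.18, adjusted p = 0.0589) at day 7 and 0.79 (SE 0.16, adjusted p = 0.00124) at day 28. No difference was called in the list, and none of the 30 was called at either day with the summed libraries.

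Among 22 PPAR target and lipid genes, 4 rose at day 7 and 7 at day 28, and the 4 were among the 7. Angptl4, the secreted inhibitor of lipoprotein lipase, spanned 19.7 to 92.6 CPM (median 49.9) in the non-diabetic libraries and 65.2 to 156 CPM (median 124) in the type 2 diabetic libraries at day 7. At day 28, Angptl4 measured 8.13 to 29.3 CPM (median 10.4) in the non-diabetic libraries and 22.5 to 58.8 CPM (median 42.5) in the type 2 diabetic libraries. Of the type 2 diabetic libraries, 7 of 8 and 8 of 10 were above all non-diabetic ones of their day. The log2 fold changes were 1.24 (SE 0.28, adjusted p = 0.00706) and 1.53 (SE 0.25, adjusted p = 6.84e-05). With the summed libraries Angptl4 was called at neither day, at 0.98 (adjusted p = 0.139) and 1.15 (adjusted p = 0.122). Pdk4, the kinase that shuts glucose carbon out of the citric acid cycle, measured 50.0 to 159.8 CPM (median 98.2) in the non-diabetic libraries and 98.5 to 447 CPM (median 199) in the type 2 diabetic libraries at day 7. At day 28, Pdk4 measured 121 to 359 CPM (median 225) in the non-diabetic libraries and 284 to 1116 CPM (median 633) in the type 2 diabetic libraries, and every type 2 diabetic library lay above the non-diabetic mean. It rose by 1.21 (SE 0.28, adjusted p = 0.00714) and 1.46 (SE 0.24, adjusted p = 8.79e-05). Ucp2, a mitochondrial carrier, rose by 0.62 (SE 0.17) and 1.18 (SE 0.14), and Plin2, a coat protein of lipid droplets, by 0.76 (SE 0.13) and 0.49 (SE 0.12). Cpt1a, which admits long-chain fatty acids to mitochondria, was 0.20 (SE 0.11, adjusted p = 0.311) at day 7 and 0.47 (SE 0.096, adjusted p = 0.00103) at day 28. The difference of Cpt1a was not called, with adjusted p = 0.362, and its day 28 call was lost with the summed libraries, at 0.39 (adjusted p = 0.237). The cholesterol exporters Abca1 and Abcg1, targets of the LXR receptors, rose by 0.57 and 0.54 at day 7 and by 0.41 and 0.52 at day 28. With the summed libraries Abcg1 stayed called at both days, and Abca1 lost its day 28 call, at 0.365 (adjusted p = 0.0771). Their group stayed small: 3 of 16 genes of LXR and cholesterol efflux rose at day 7 and 4 at day 28.

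Fewer genes fell at both days, and with the summed libraries none of the falls was called at both days. Over 11 alternatives, the day 7 call was lost in 6 for Slc25a29, in 5 each for Uts2r, Sertad4 and Sybu, and in 4 each for Phkg1 and Gsn. Slc6a7, a proline transporter, spanned 9 to 21.5 CPM (median 15.8) in the non-diabetic libraries and 2.73 to 9.53 CPM (median 6.44) in the type 2 diabetic libraries at day 7. At day 28, Slc6a7 measured 6.36 to 27 CPM (median 13.3) in the non-diabetic libraries and 1.89 to 11.3 CPM (median 5.6) in the type 2 diabetic libraries. Every type 2 diabetic library was below the non-diabetic mean at both days, and 7 of 8 and 6 of 10 were below all non-diabetic ones. Its log2 fold changes were -1.30 (SE 0.30, adjusted p = 0.00805) and -1.11 (SE 0.26, adjusted p = 0.00495). Uts2r, the urotensin receptor, was -1.82 (SE 0.52, adjusted p = 0.0304) and -1.55 (SE 0.38, adjusted p = 0.00687), at no more than 2.28 CPM in any day 7 library. Gsn, the actin-severing protein gelsolin, ranged over 396 to 683 CPM (median 498) in the non-diabetic libraries and 262 to 432 CPM (median 355) in the type 2 diabetic libraries at day 7. At day 28, Gsn measured 2933 to 6300.3 CPM (median 4109) in the non-diabetic libraries and 1458 to 4029 CPM (median 2741) in the type 2 diabetic libraries. It fell by 0.58 (adjusted p = 0.0405) and by 0.67 (adjusted p = 0.00346). Ptgfr, the receptor of prostaglandin F, was -0.75 (SE 0.19) and -0.63 (SE 0.16). Lrrc4b was -1.35 (SE 0.31) and -0.93 (SE 0.26), Prrt4 -1.07 (SE 0.18) and -0.52 (SE 0.15), and Sybu -0.62 (SE 0.19) and -0.65 (SE 0.16). Phkg1, the catalytic subunit of muscle phosphorylase kinase, was -0.56 (SE 0.17) and -0.60 (SE 0.15), Sertad4 -0.55 (SE 0.17) and -0.58 (SE 0.15), and Slc25a29, a mitochondrial carrier of basic amino acids, -0.51 (SE 0.14) and -0.55 (SE 0.12). Of 14 markers of resting fibroblasts, 3 fell at both days, which were Pi16, Gsn and Mfap5, and Ly6a, which interferons also induce, rose at both. The day 28 calls of Mfap5 and Pi16 were lost in 7 and 5 of 11 alternatives. Pi16 was -0.84 (SE 0.18) and -0.49 (SE 0.15), Mfap5 -0.42 (SE 0.092) and -0.25 (SE 0.081), and Ly6a 0.96 (SE 0.10) and 0.67 (SE 0.086). Pdgfrb, the receptor that marks pericytes and fibroblasts, was -0.43 (SE 0.12) and -0.34 (SE 0.10). Without overlap were 57 genes below at day 7 (0.292%) and 16 at day 28 (0.0819%).

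**Figure D3:**
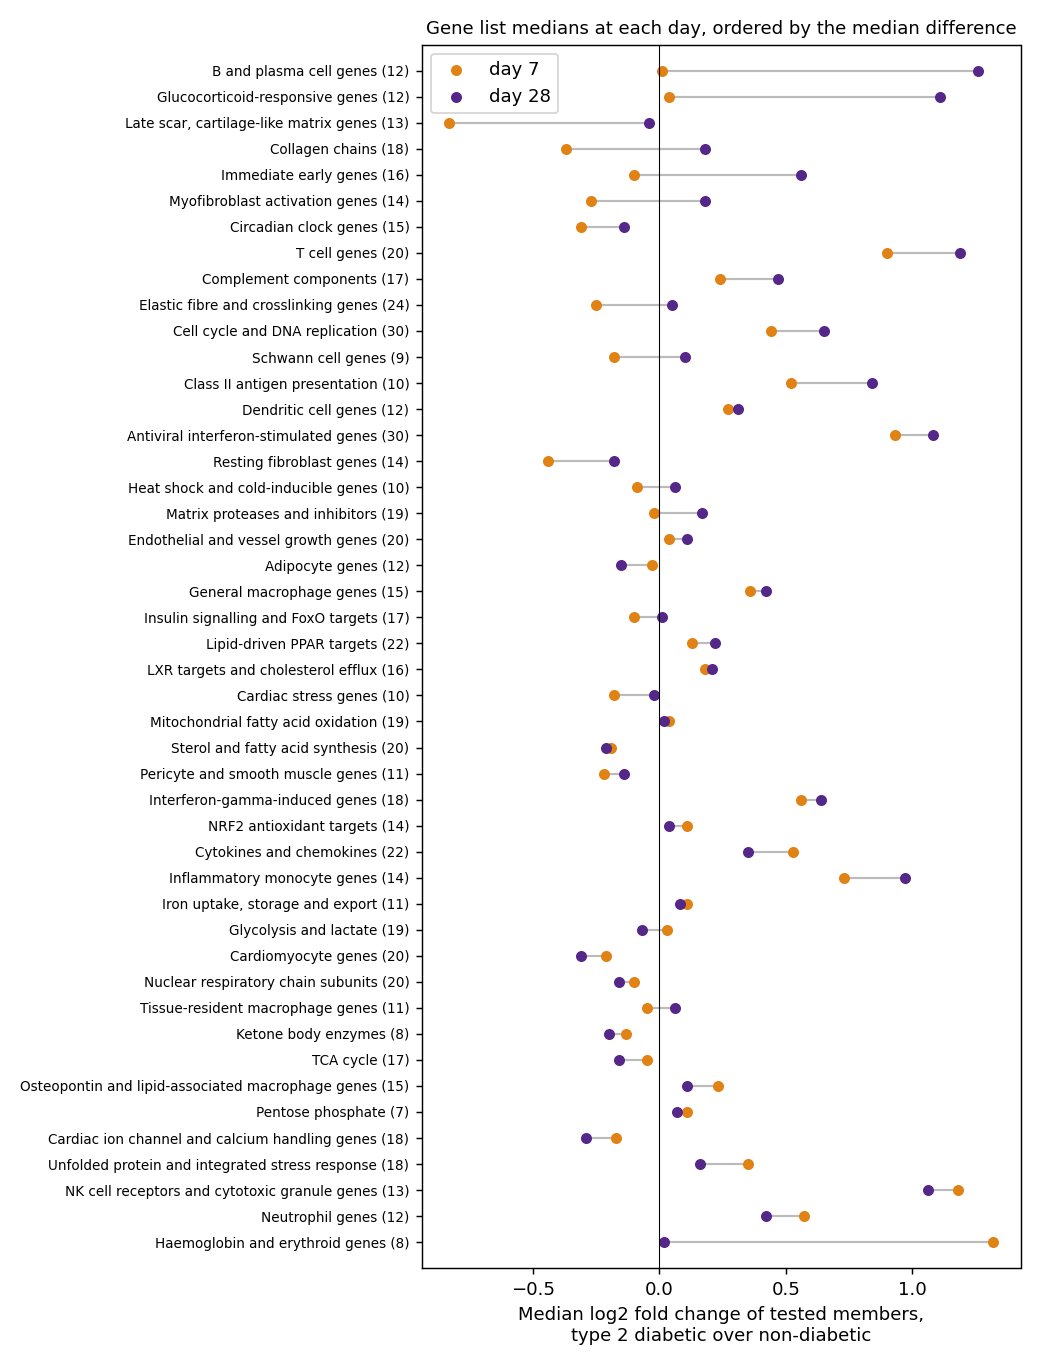
Median log2 fold change of type 2 diabetic over non-diabetic tissue for the tested members of 46 gene lists at day 7 (orange) and day 28 (purple), with the number tested in brackets, ordered by the median difference. The interferon list stands at 0.93 and 1.08, erythroid genes at 1.32 and 0.02, glucocorticoid targets at 0.04 and 1.11, and late scar genes at -0.83 and -0.04.

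Extracellular matrix genes gave a few called differences. Of 18 collagen genes, 4 fell at day 7 (3% of genes tested fell) and 2 rose at day 28 (6.57% rose and 3.31% fell), with medians of -0.37 and 0.18, and 3 differences were called, all positive. All 18 differences were above 0, from 0.07 to 1.02. Of 24 genes of elastic fibres and crosslinking, 9 fell at day 7, and 1 rose and 1 fell at day 28, with 1 called difference. Of 13 genes of the late scar, 6 fell at day 7 and none was called at day 28, with medians of -0.83 and -0.04 and 1 called difference. At day 28 the smallest adjusted p in that list was 0.124, of Clu.

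Fmod, the collagen-binding proteoglycan fibromodulin, spanned 167 to 343 CPM (median 273) in the non-diabetic libraries and 49.4 to 178 CPM (median 147) in the type 2 diabetic libraries at day 7. At day 28, Fmod measured 136 to 399 CPM (median 242) in the non-diabetic libraries and 222 to 609.8 CPM (median 338) in the type 2 diabetic libraries. At day 7 all type 2 diabetic libraries were below the non-diabetic mean and 7 of 8 below all non-diabetic libraries, and at day 28 7 of 10 were above the mean. Its effects were -0.92 (SE 0.22, adjusted p = 0.0081) and 0.44 (SE 0.19, adjusted p = 0.13), and the difference was 1.37 (SE 0.28, adjusted p = 0.0122). Without type 2 diabetic replicate 1 at day 7, the lowest library of its group, the difference was 1.24 (adjusted p = 0.0167). Fbln7, a secreted adhesion protein of the fibulin family, measured 2.51 to 10.5 CPM (median 3.42) in the non-diabetic libraries and 0.835 to 3.16 CPM (median 1.98) in the type 2 diabetic libraries at day 7. At day 28, Fbln7 measured 7.53 to 15.2 CPM (median 11.5) in the non-diabetic libraries and 9.35 to 24 CPM (median 16.8) in the type 2 diabetic libraries. Its effects were -1.19 (SE 0.27, adjusted p = 0.00605) and 0.63 (SE 0.22, adjusted p = 0.0616), with a difference of 1.82 (SE 0.35, adjusted p = 0.00794). Col1a1 and Col1a2, the chains of type I collagen, gave differences of 0.83 (SE 0.21, adjusted p = 0.0417) and 0.85 (SE 0.21, adjusted p = 0.039). Col1a1 spanned 9236 to 14178 CPM (median 12372) in the non-diabetic libraries and 6104 to 11581 CPM (median 8603) in the type 2 diabetic libraries at day 7. At day 28, Col1a1 measured 556 to 1197 CPM (median 955) in the non-diabetic libraries and 758 to 1732 CPM (median 1067) in the type 2 diabetic libraries, so the groups overlapped at both days. Col16a1, the third called collagen, had a difference of 0.72 (SE 0.17, adjusted p = 0.0297), whereas Col3a1 had 0.42 (SE 0.19, adjusted p = 0.284).

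Ltbp4, which holds latent TGF-beta in the matrix and takes part in elastic fibre assembly, had effects of -0.75 (SE 0.15, adjusted p = 0.00166) and 0.02 (SE 0.13, adjusted p = 0.958) and a difference of 0.77 (SE 0.20, adjusted p = 0.0408). Eln, the elastin gene, fell by 1.30 at day 7 (adjusted p = 0.00479) and was -0.32 (SE 0.25, adjusted p = 0.456) at day 28, and its difference of 0.98 (SE 0.38, adjusted p = 0.187) was not called. Cilp and Comp, cartilage proteins of the maturing scar, fell by 1.07 (adjusted p = 0.000768) and 0.97 (adjusted p = 0.0137) at day 7, with differences of 0.69 (SE 0.26, adjusted p = 0.176) and 1.05 (SE 0.32, adjusted p = 0.0901). The differences of Sfrp2, a secreted inhibitor of Wnt signals, and Acan, a large cartilage proteoglycan, were 1.18 (SE 0.37, adjusted p = 0.104) and 1.53 (SE 0.45, adjusted p = 0.0707). Cthrc1, a marker of activated fibroblasts, had a day 7 effect of -0.42 (SE 0.24, adjusted p = 0.317), a day 28 effect of 0.84 (SE 0.21, adjusted p = 0.00713) and a difference of 1.25 (SE 0.31, adjusted p = 0.0385). Postn, another such marker, had 0.57 (SE 0.20, adjusted p = 0.147), and Acta2, the actin of myofibroblasts, 0.06 (SE 0.26, adjusted p = 0.953). Ctsk, a protease that cuts collagen, spanned 92.9 to 203 CPM (median 97.7) in the non-diabetic libraries and 42.4 to 80.2 CPM (median 71.9) in the type 2 diabetic libraries at day 7 without overlap. At day 28, Ctsk measured 32.9 to 62.3 CPM (median 50.6) in the non-diabetic libraries and 37.2 to 85 CPM (median 63.8) in the type 2 diabetic libraries, with a difference of 1.00 (SE 0.22, adjusted p = 0.015). Mmp2, a gelatinase, gave 0.67 (SE 0.17, adjusted p = 0.0414). Cpxm2, a secreted carboxypeptidase-like protein, gave 1.22 (SE 0.26, adjusted p = 0.0148), Matn4, a matrix adaptor protein, 1.49 (SE 0.38, adjusted p = 0.0414), and Smoc2, a matricellular protein, 0.63 (SE 0.12, adjusted p = 0.00895). Smoc2 spanned 108 to 148 CPM (median 121) in the non-diabetic libraries and 61.8 to 100.4 CPM (median 88.5) in the type 2 diabetic libraries at day 7, without overlap. At day 28, Smoc2 measured 148 to 226 CPM (median 198) in the non-diabetic libraries and 169.8 to 245 CPM (median 211) in the type 2 diabetic libraries, with overlap. Other named positive differences were those of Gas6, the ligand of the TAM receptors, at 0.80 (SE 0.20), Islr2 at 1.33 (SE 0.33), Dclk3 at 1.37 (SE 0.33), Angpt4, an angiopoietin, at 1.16 (SE 0.26), Notch3, the receptor of vascular smooth muscle, at 0.67 (SE 0.17), and Eng, a TGF-beta co-receptor of endothelium, at 0.70 (SE 0.18).

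Of the 13 genes called in opposite directions, 9 went from lower to higher. All 13 differences were called, which the choice of the 13 makes likely, since opposite effects add up in the difference. Some calls of single days were not stable: over 11 alternatives, the day 28 calls of Ltbp3 and Slc16a10 were lost in 8 each and the day 7 call of Lrp5 in 6. The following were picked after their values were seen. Synpo, an actin-binding protein, spanned 339.5 to 481 CPM (median 443) in the non-diabetic libraries and 324 to 396 CPM (median 368) in the type 2 diabetic libraries at day 7. At day 28, Synpo measured 246 to 294 CPM (median 270.5) in the non-diabetic libraries and 311 to 379.7 CPM (median 333) in the type 2 diabetic libraries. Its groups overlapped at day 7 and not at day 28. Its effects were -0.27 (SE 0.061, adjusted p = 0.00585) and 0.31 (SE 0.053, adjusted p = 0.000123), with a difference of 0.58 (SE 0.081, adjusted p = 0.000147). Ssc5d, a soluble scavenger receptor, spanned 101 to 172 CPM (median 117) in the non-diabetic libraries and 56.5 to 88.5 CPM (median 76.9) in the type 2 diabetic libraries at day 7, without overlap. At day 28, Ssc5d measured 38.1 to 74.8 CPM (median 54.7) in the non-diabetic libraries and 50.8 to 112 CPM (median 71.2) in the type 2 diabetic libraries. Its effects were -0.73 (SE 0.14, adjusted p = 0.000907) and 0.37 (SE 0.12, adjusted p = 0.0394). Hspg2, the basement membrane proteoglycan perlecan, had -0.39 (SE 0.10) and 0.32 (SE 0.090), Ltbp3, which holds latent TGF-beta, -0.44 (SE 0.12) and 0.31 (SE 0.10), and Lrp5, a Wnt co-receptor, -0.38 (SE 0.11) and 0.31 (SE 0.097). In the reverse direction, Slc16a10, an amino acid transporter, rose by 0.39 (SE 0.087, adjusted p = 0.00551) at day 7 and was -0.25 (SE 0.076, adjusted p = 0.0324) at day 28, and Wdfy3, a scaffold of selective autophagy, was 0.26 (SE 0.065, adjusted p = 0.0116) and -0.21 (SE 0.056, adjusted p = 0.0129).

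The genes with a positive difference were richer in G and C: their longest transcripts had a median GC content of 56.7% against 49.5% over all genes tested, with 48.9% for the negative differences and 46.8% for the genes that rose at both days. The trend of log2 level with GC, as high minus low GC, differed between libraries. Its group medians were -0.01 and -0.16 for non-diabetic and type 2 diabetic tissue at day 7 and 0.14 and 0.10 at day 28. Single libraries ran from -0.358 to 0.501 and from -0.446 to -0.063 at day 7. At day 28 they ran from -0.494 to 0.163 and from -0.02 to 0.23. The value of 0.501 was that of non-diabetic replicate 4 at day 7. With that trend removed from each library, 142 positive and 47 negative differences were called, 152 of them shared with the 240, and no collagen difference was called, with Col1a1 at 0.69 (adjusted p = 0.078), Col1a2 at 0.79 (adjusted p = 0.0541) and Col16a1 at 0.55 (adjusted p = 0.116). The differences of Fmod, Fbln7, Cpxm2, Ctsk, Cthrc1, Matn4, Smoc2, Hspg2, Ltbp3, Ssc5d and Synpo stayed called, whereas those of Ltbp4 and Mmp2 did not, at 0.57 (adjusted p = 0.0618) and 0.61 (adjusted p = 0.0591). The day 7 effects of Hspg2 and Synpo were then no longer called, at -0.23 (adjusted p = 0.111) and -0.17 (adjusted p = 0.11). Without type 2 diabetic replicate 4 at day 28 and non-diabetic replicate 4 at day 7, 152 differences were called and no collagen among them, whereas Fmod stayed called. The collagen estimates were then 0.79 for Col1a1 (adjusted p = 0.0819), 0.82 for Col1a2 (adjusted p = 0.0692) and 0.68 for Col16a1 (adjusted p = 0.0587). Of the 40 genes named here with a called difference, 19 stayed called when any 1 of the 37 libraries was left out, among them Fmod, Fbln7, Cpxm2, Ctsk, Smoc2, Hspg2, Ssc5d and Synpo. The calls of Col1a1, Col1a2, Ltbp4, Mmp2, Notch3, Eng, Gas6, Matn4, Cthrc1, Clock and Hbb-bt were each lost in at least 13 of the 37.

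**Figure D4:**
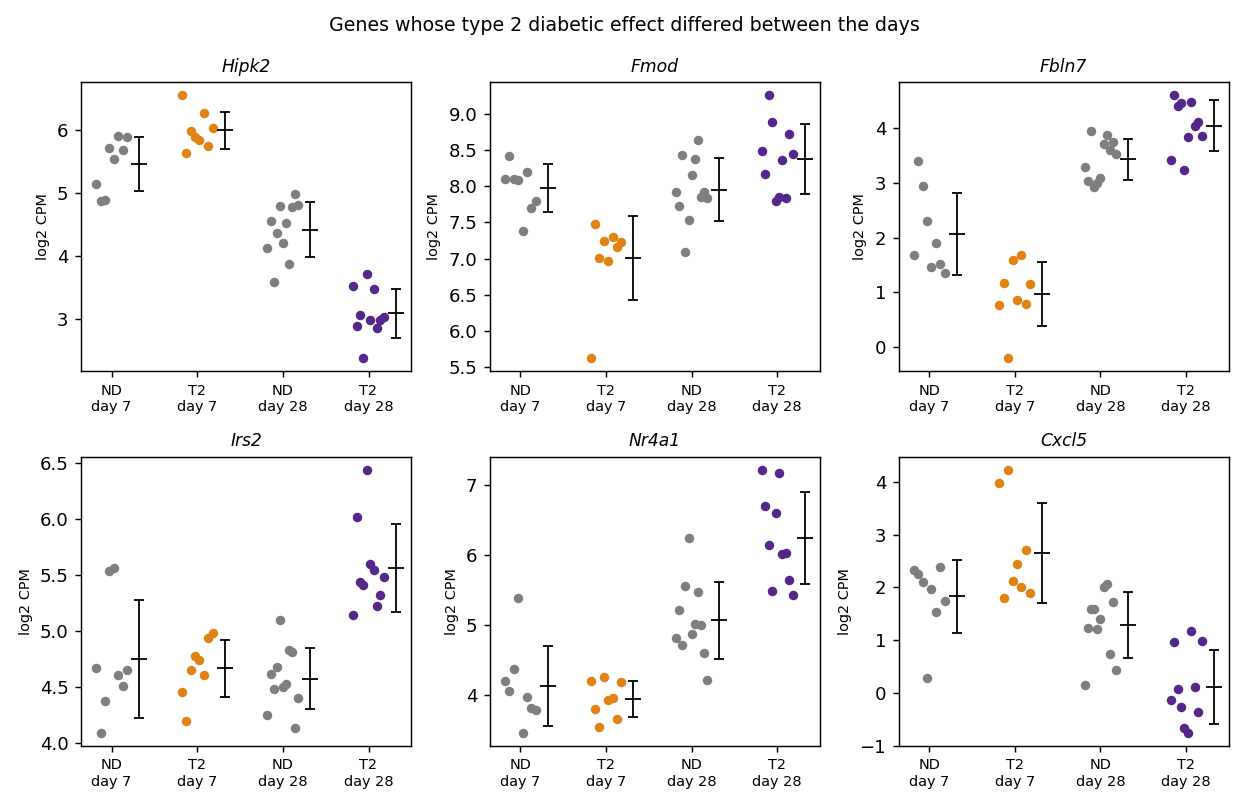
Level in log2 CPM of 6 genes whose type 2 diabetic effect differed between the days, 1 point per library, with the mean and SD of each group beside the points (ND, non-diabetic; T2, type 2 diabetic; n = 8, 8, 11 and 10 from left to right). Hipk2 lies higher in type 2 diabetic tissue at day 7 and lower at day 28, and Fmod and Fbln7 the reverse, while Irs2 and Nr4a1 overlap fully at day 7.

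Hipk2, a kinase of the stress response and of p53 signalling, had the negative difference with the smallest adjusted p. It spanned 29.4 to 59.7 CPM (median 49.2) in the non-diabetic libraries and 49.9 to 93.8 CPM (median 61.4) in the type 2 diabetic libraries at day 7, where 4 of 8 type 2 diabetic libraries were above all non-diabetic ones. At day 28 it spanned 12 to 31.7 CPM (median 22.9) in the non-diabetic libraries and 5.15 to 13.1 CPM (median 8.01) in the type 2 diabetic libraries, where 9 of 10 were below all non-diabetic ones. Its effects were 0.52 (SE 0.19, adjusted p = 0.0899) and -1.34 (SE 0.17, adjusted p = 6.79e-07), with a difference of -1.86 (SE 0.25, adjusted p = 0.000147). It is 1 of the 2 differences called with the summed libraries, at -1.95 (adjusted p = 0.028), and stayed called in every alternative. The other is a gene that the annotation used here gives no name. Soga1 and Syne3 were not called at day 7, at 0.01 (SE 0.094, adjusted p = 0.986) and 0.04 (SE 0.12, adjusted p = 0.907), and fell at day 28. Soga1, a regulator of autophagy, spanned 22.2 to 33.3 CPM (median 28.4) in the non-diabetic libraries and 13.1 to 23.2 CPM (median 17.3) in the type 2 diabetic libraries at day 28, and Syne3, a protein of the nuclear envelope, 9.06 to 15.2 CPM (median 11.8) in the non-diabetic libraries and 5.31 to 8.71 CPM (median 7.31) in the type 2 diabetic libraries, without overlap. Their differences were -0.72 (SE 0.13, adjusted p = 0.0049) and -0.81 (SE 0.17, adjusted p = 0.0122). Esm1, a proteoglycan secreted by endothelial tip cells, was 0.51 (SE 0.25, adjusted p = 0.24) at day 7 and -0.89 (SE 0.22, adjusted p = 0.0072) at day 28, with a difference of -1.40 (SE 0.33, adjusted p = 0.0285).

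Chemokines that draw neutrophils and monocytes made up the 2 called differences among 22 cytokines and chemokines, both negative. Cxcl5, a neutrophil attractant, spanned 1.19 to 5.22 CPM (median 4.08) in the non-diabetic libraries and 3.46 to 18.7 CPM (median 4.87) in the type 2 diabetic libraries at day 7. At day 28, Cxcl5 measured 1.07 to 4.17 CPM (median 2.6) in the non-diabetic libraries and 0.557 to 2.22 CPM (median 0.946) in the type 2 diabetic libraries. At day 28 all 10 type 2 diabetic libraries were below the non-diabetic mean and 7 below all non-diabetic libraries. Its effects were 1.00 (SE 0.35, adjusted p = 0.0821) and -1.15 (SE 0.32, adjusted p = 0.0163), with a difference of -2.15 (SE 0.47, adjusted p = 0.0171). Ccl7, a monocyte attractant, spanned 3.61 to 18.1 CPM (median 8.56) in the non-diabetic libraries and 13.9 to 38.3 CPM (median 23.1) in the type 2 diabetic libraries at day 7. At day 28, Ccl7 measured 1.98 to 6.2 CPM (median 4.86) in the non-diabetic libraries and 2.26 to 6.6 CPM (median 4.13) in the type 2 diabetic libraries. It rose at day 7 by 1.32 (SE 0.27, adjusted p = 0.00269) and was -0.13 (SE 0.24, adjusted p = 0.798) at day 28, with a difference of -1.45 (SE 0.36, adjusted p = 0.0377). Ccl2, its close relative, rose at day 7 by 0.91 (SE 0.25, adjusted p = 0.0246) and was 0.11 (SE 0.22, adjusted p = 0.812) at day 28, and its difference of -0.80 (SE 0.33, adjusted p = 0.219) was not called. Ccl9 rose at both days, by 0.92 and 0.93. Of 12 tested neutrophil markers, 2 rose at day 7 and 1 at day 28, against 2.81% and 6.57% of genes tested. S100a8 was 0.38 (SE 0.42, adjusted p = 0.661) and -0.51 (SE 0.38, adjusted p = 0.439). The remaining negative differences named by the rule were those of Mir6236 at -1.08 (SE 0.26), Mmp27, a matrix protease, at -1.06 (SE 0.26), Ifit1bl1 at -0.77 (SE 0.18) and Clock, a core gene of the circadian clock, at -0.43 (SE 0.12). The difference of Clock was close to the threshold, with adjusted p = 0.0495. Its call was lost in 28 omissions of 1 library and in 7 of 10 alternatives. The call of Mmp27 was lost in 8 such omissions and 5 alternatives, and that of Ccl7 in 12 and 4. Ifit1bl1 was the named interferon-related gene whose rise at day 7 (0.94 (SE 0.14, adjusted p = 4.32e-05)) differed from its day 28 effect (0.17 (SE 0.12, adjusted p = 0.407)).

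Genes of red blood cells rose at day 7 in 7 of 8, with a median of 1.32, and none was called at day 28, where the median was 0.02. Hbb-bs, an adult beta globin, spanned 31.3 to 152 CPM (median 57.4) in the non-diabetic libraries and 86.8 to 269 CPM (median 139.6) in the type 2 diabetic libraries at day 7. At day 28, Hbb-bs measured 110.1 to 784 CPM (median 262) in the non-diabetic libraries and 161 to 402 CPM (median 284) in the type 2 diabetic libraries, so the groups overlapped at both days. Its effects were 1.27 (SE 0.30, adjusted p = 0.00943) and -0.05 (SE 0.26, adjusted p = 0.937), with a difference of -1.32 (SE 0.40, adjusted p = 0.0874). Hbb-bt, its near copy, gave the 1 called difference of the list, -1.56 (SE 0.41, adjusted p = 0.0481), which was lost in 27 of the 37 omissions of 1 library and in 6 of 10 alternatives. Hba-a1 and Alas2, alpha globin and the first enzyme of haem synthesis, rose by 1.18 and 1.15 at day 7 and were 0.01 and 0.03 at day 28. The mean level of the list ran from 0.74 to 2.87 log2 CPM in non-diabetic and 2.02 to 4.39 in type 2 diabetic libraries at day 7, and from 2.16 to 5.02 and 2.83 to 4.30 at day 28.

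Glucocorticoid targets rose at day 28, and none of their differences from day 7 was called. Of 12 targets, 1 rose at day 7 and 11 at day 28, with medians of 0.04 and 1.11, and no difference was called, although all 12 were above 0, from 0.25 to 2.17. The 1 that rose at day 7 was Pdk4, which is also counted among the PPAR target genes. At day 7 the mean level of the list ran from 4.80 to 6.81 log2 CPM (median 4.96) in non-diabetic libraries. In type 2 diabetic libraries it ran from 4.73 to 6.16 (median 5.74). At day 28 the medians were 5.43 and 6.56. Leaving out 1 library at a time gave day 7 medians of the fold changes from -0.055 to 0.428. The median difference then ran from 0.685 to 1.16. Fkbp5, a co-chaperone of the glucocorticoid receptor, spanned 44.8 to 339 CPM (median 69.5) in the non-diabetic libraries and 46.6 to 191 CPM (median 137) in the type 2 diabetic libraries at day 7. At day 28, Fkbp5 measured 29.9 to 128 CPM (median 45.6) in the non-diabetic libraries and 30.2 to 259 CPM (median 174) in the type 2 diabetic libraries. Its effects were 0.21 (SE 0.40, adjusted p = 0.823) and 1.54 (SE 0.35, adjusted p = 0.00347), and the difference was 1.33 (SE 0.53, adjusted p = 0.201). Tsc22d3, the anti-inflammatory target GILZ, had 0.04 (SE 0.33) and 1.11 (SE 0.29), with 9 of 10 type 2 diabetic libraries above all non-diabetic ones at day 28. Zbtb16 had 0.04 (SE 0.50) and 1.40 (SE 0.43), and Hif3a -0.58 (SE 0.50) and 1.59 (SE 0.44). With the summed libraries 2 of the 12 rose at day 28. Per1 and Per2, clock genes that glucocorticoids also induce, were -0.27 (SE 0.37) and -0.31 (SE 0.25) at day 7 and 1.01 (SE 0.32) and 0.83 (SE 0.22) at day 28. Of 15 circadian genes, 1 rose and 3 fell at day 7 and 2 rose at day 28. Over all genes tested, 2.81% rose and 3% fell at day 7, and 6.57% rose at day 28. The part of circadian phase in these values was not tested.

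Immediate early genes, which cells switch on within minutes of a stimulus, gave no call at day 7 and 6 rises of 16 at day 28, with 1 called difference. That gene was Nr4a1, a nuclear receptor of macrophages and stressed cells, which spanned 10.9 to 41.6 CPM (median 16) in the non-diabetic libraries and 11.6 to 19.1 CPM (median 15.3) in the type 2 diabetic libraries at day 7. At day 28, Nr4a1 measured 18.4 to 75.7 CPM (median 32) in the non-diabetic libraries and 42.8 to 149 CPM (median 68.1) in the type 2 diabetic libraries. All 10 type 2 diabetic libraries at day 28 were above the non-diabetic mean, and 4 above all non-diabetic libraries. Its effects were -0.26 (SE 0.27, adjusted p = 0.634) and 1.22 (SE 0.23, adjusted p = 0.000561), with a difference of 1.48 (SE 0.36, adjusted p = 0.0297). Fosb and Zfp36 had 1.35 (SE 0.26) and 0.75 (SE 0.11) at day 28, and their differences of 1.45 (SE 0.39, adjusted p = 0.0517) and 0.59 (SE 0.17, adjusted p = 0.0663) were not called. Irs2, a docking protein of the insulin receptor, was the 1 called difference among 17 genes of insulin and FOXO signalling. It spanned 17 to 47.1 CPM (median 24.7) in the non-diabetic libraries and 18.3 to 31.5 CPM (median 25.9) in the type 2 diabetic libraries at day 7. At day 28, Irs2 measured 17.5 to 34.2 CPM (median 23) in the non-diabetic libraries and 35.3 to 86.5 CPM (median 43.9) in the type 2 diabetic libraries, where the groups were apart. Its effects were -0.15 (SE 0.18, adjusted p = 0.704) and 1.01 (SE 0.16, adjusted p = 3.6e-05), with a difference of 1.16 (SE 0.24, adjusted p = 0.0122).

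**Figure D5:**
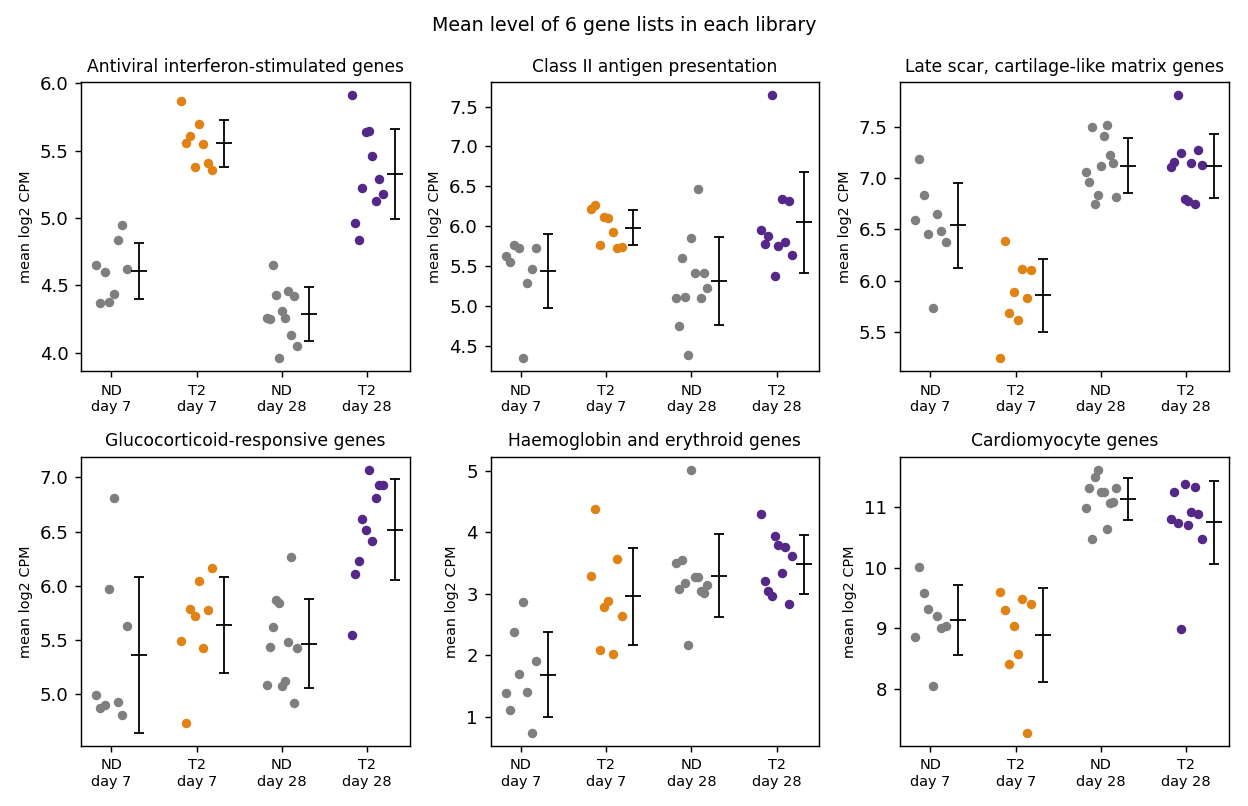
Mean log2 CPM over the tested members of 6 gene lists, 1 point per library, with the mean and SD of each group beside the points (ND, non-diabetic; T2, type 2 diabetic; n = 8, 8, 11 and 10 from left to right). The interferon list is higher in type 2 diabetic tissue at both days without overlap, the erythroid list is shifted up at day 7, and the cardiomyocyte list overlaps at both days, with type 2 diabetic replicate 4 at day 28 lowest of its group at 8.99.

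Ighg2c, an antibody heavy chain, had the largest named difference, 3.88 (SE 0.83, adjusted p = 0.0132). It spanned 1.32 to 18.6 CPM (median 2.17) in the non-diabetic libraries and 0.686 to 1.95 CPM (median 1.42) in the type 2 diabetic libraries at day 7. At day 28, Ighg2c measured 1.64 to 10.7 CPM (median 3.95) in the non-diabetic libraries and 3.27 to 101 CPM (median 6.13) in the type 2 diabetic libraries, where the top value was that of type 2 diabetic replicate 4. The top value at day 7 was that of non-diabetic replicate 4. Without these 2 libraries, the difference was 2.38 (adjusted p = 0.0565). None of 12 B cell markers was called at either day, at medians of 0.01 and 1.26, and the day 28 median was -0.44 without the same libraries. Among 20 endothelial markers none was called at day 7, and 4 rose and 1 fell at day 28. Over all genes tested, 6.57% rose and 3.31% fell at day 28. Vwf, the adhesive clotting protein, was among the 4, at 0.84 (SE 0.20, adjusted p = 0.00385), and its difference was 0.82 (SE 0.30, adjusted p = 0.158). Col18a1, the source of endostatin, was 0.50 (SE 0.12, adjusted p = 0.00636) at day 28. Lgals3bp, a secreted glycoprotein, was the 1 gene called at both days in the same direction whose difference was called as well. It measured 172 to 284 CPM (median 211) in the non-diabetic libraries and 308 to 401 CPM (median 346) in the type 2 diabetic libraries at day 7. At day 28, Lgals3bp measured 85.6 to 139 CPM (median 106) in the non-diabetic libraries and 192 to 338 CPM (median 239) in the type 2 diabetic libraries, without overlap at either day, and rose by 0.70 (SE 0.10, adjusted p = 2.83e-05) and 1.23 (SE 0.087, adjusted p = 2.52e-12), with a difference of 0.53 (SE 0.13, adjusted p = 0.0345).

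Genes of the muscle cell itself gave few calls. None of 20 cardiomyocyte markers, 19 genes of fatty acid oxidation, 17 of the citric acid cycle and 20 of the respiratory chain was called at either day or for the difference. At day 28, none of these but 11 fatty acid oxidation genes had an estimate above 0. The cardiomyocyte median was then -0.31, and -0.19 without type 2 diabetic replicate 4. Among 18 ion channel and calcium handling genes 0 were above 0 at day 28 and 1 fell. Of 10 cardiac stress genes 2 fell, against 3.31% of genes tested. Myh6 and Myh7, the heavy chains of cardiac myosin, were -0.15 (SE 0.38) and -0.55 (SE 0.37) at day 7 and -0.57 (SE 0.34) and 0.10 (SE 0.32) at day 28. Nppa and Nppb, the natriuretic peptides released by strained muscle, had differences of -0.15 (SE 0.27) and 0.09 (SE 0.27), and Slc2a4, the insulin-regulated glucose transporter, 0.25 (SE 0.38). Bdh1, an enzyme that burns ketones, was -0.60 (SE 0.30, adjusted p = 0.249) and -0.72 (SE 0.26, adjusted p = 0.0755), and Ucp3 1.00 (SE 0.34, adjusted p = 0.0656) and 0.63 (SE 0.28, adjusted p = 0.149). Il1b, Mrc1 and Spp1, an inflammatory cytokine, a receptor of reparative macrophages and osteopontin, had differences of -0.36 (SE 0.55), -0.08 (SE 0.24) and -0.66 (SE 0.30), and Fasn, of fatty acid synthesis, 0.04 (SE 0.50), none of them called. Cfb, a complement protease, and Chac1, of the integrated stress response, rose at both days, by 1.38 and 0.65 at day 7 and 1.34 and 0.62 at day 28, as did the dendritic cell markers Itgax (0.73 and 0.84) and Bst2 (0.83 and 1.11), the class II protease Ctss (0.59 and 0.81) and Gbp6 (0.89 and 0.77), a guanylate-binding protein.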

How the data were processed

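RNA-seq libraries of infarcted left ventricle were made from RNA extracted with a PureLink kit and a TruSeq stranded mRNA kit, per the labels' protocols. The authors deposited raw counts per Ensembl gene, 1 table per day. The submitters' processing notes name mm39 as genome build and list DESeq2. No source used here gives the aligner, the counter, its strand setting or the annotation, so a gene and its antisense partner cannot be told apart, nor can near-identical copies. Of counts from 1 to 49, 76.4% were even at day 7 and 75.2% at day 28.

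The 56867 genes in both tables were joined, and every column matched 1 sample, with 0 columns left over. Symbols came from GENCODE M21 (GRCm38) by identifier for 51880 genes, which held 99.52% of counts. In R 4.3.3, edgeR 4.0.16 was fitted to the 37 libraries (filterByExpr with minimum count 10 and total 15, TMM, glmQLFit, glmQLFTest, 33 residual degrees of freedom), with contrasts for each day and their difference, and Benjamini-Hochberg adjustment over all genes. Adjusted p-values are from edgeR unless another tool is named. Levels are CPM after TMM scaling, and log2 CPM has a prior count of 2. Fold changes are log2, type 2 diabetic over non-diabetic, with their standard error (SE). The script was tested on simulated data. No pair of libraries in a group differed by as little as sampling noise (lowest chi-square per gene 17.6).

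Members, lists, tests and most alternatives were chosen with earlier results of these data known. Named genes are the 10 largest called differences and the 10 largest effects held at both days per direction (mean log2 CPM of at least 1, gene name given), up to 3 members per list, and a fixed set, some of which are not reported here. Genes added after values were seen are Fkbp5, Tsc22d3, Zbtb16, Per1, Per2, Hif3a, Hba-a1, Hbb-bs, Alas2, Fosb, Zfp36, Ssc5d, Synpo, Hspg2, Ltbp3, Lrp5, Slc16a10, Wdfy3, Lgals3bp, Sfrp2, Acan, Ccl2, Vwf, Col18a1, H2-Aa, Isg15, Stat2 and Clu. Alternatives were DESeq2 1.42.0, limma-voom (limma 3.58.1), RLE scaling, no low-count filter, all 6 groups, each day alone, a replicate block, a cardiomyocyte covariate, summed libraries and each library left out. Removing the GC trend and leaving out the libraries that stand apart were chosen after the data were seen.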

Additional observations from a re-analysis of the deposited data

Results flagged for a closer look

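In groups of 8 or 10 libraries, 57 values lay further from the rest of their group than Dixon's test allows, over 435 groups of values examined for the genes and lists of the report, where chance gives about 1 in 20. The group of 11 libraries was not examined. Values are log2 CPM. In type 2 diabetic replicate 1 at day 7 these were Acan at 3.51, Ccr2 at 7.44, Col3a1 at 12.91, Cpxm2 at 4.09, Cthrc1 at 7.68, Ctsk at 5.41, Dclk3 at 0.60, Fmod at 5.63, Postn at 11.86 and Sertad4 at 5.45. Those of type 2 diabetic replicate 2 at day 7 were Angptl4 at 6.03 and Chac1 at 1.36. In type 2 diabetic replicate 3 at day 7 these were Mir6236 at 4.95. Those of type 2 diabetic replicate 4 at day 7 were the mean of the B cell list at 2.82. In type 2 diabetic replicate 5 at day 7 these were Uts2r at -4.76. Those of type 2 diabetic replicate 6 at day 7 were Klrb1c at -0.48. In type 2 diabetic replicate 7 at day 7 these were Bdh1 at 2.07, Myh7 at 4.69 and Nppb at 6.57. Those of non-diabetic replicate 2 at day 7 were Phkg1 at 2.70 and Zbp1 at 3.14. Those of non-diabetic replicate 4 at day 7 were Cxcl5 at 0.29, Postn at 12.06 and the mean of the B cell list at 3.55. In non-diabetic replicate 5 at day 7 these were Cd74 at 6.67, Cpxm2 at 4.92, Ctsk at 7.67, H2-Aa at 6.00, Hif3a at 3.80, Il1b at -0.55, Itgax at 2.62, Nppb at 6.47, Oas1g at 0.81, Syne3 at 4.79, Synpo at 8.41 and the mean of the class II list at 4.34. At day 28, type 2 diabetic replicate 1 did so in Cxcl10 at 4.27, Il1b at 4.00 and Tsc22d3 at 6.95. At day 28, type 2 diabetic replicate 3 did so in the mean of the late scar list at 7.81. At day 28, type 2 diabetic replicate 4 did so in Bdh1 at 4.65, Cd3d at 3.14, Cd3e at 3.34, Eng at 9.79, Gpr171 at 4.02, Il2rb at 4.76, Klre1 at 1.00, Lck at 4.55, Ly6c2 at 4.24, Myh6 at 11.08, Myh7 at 10.14, Nppb at 8.72, Slc2a4 at 5.62, the mean of the B cell list at 6.80, the mean of the cardiomyocyte list at 8.99 and the mean of the class II list at 7.64. At day 28, type 2 diabetic replicate 6 did so in Nppa at 11.50.

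The type 2 diabetic effect differed between the days, by the test of the difference itself (edgeR, adjusted p at or under 0.05), in 40 genes of the report. In log2 units of day 28 minus day 7, the largest positive differences were Ighg2c 3.88, Fbln7 1.82, Matn4 1.49, Nr4a1 1.48, Dclk3 1.37 and Fmod 1.37. Next came Islr2 1.33, Cthrc1 1.25, Cpxm2 1.22, Angpt4 1.16, Irs2 1.16 and Ssc5d 1.10. After these stood Ctsk 1.00, Col1a2 0.85, Col1a1 0.83, Gas6 0.80, Ltbp4 0.77 and Ltbp3 0.75. Smaller ones were Col16a1 0.72, Hspg2 0.71, Eng 0.70, Lrp5 0.69, Mmp2 0.67 and Notch3 0.67. The smallest were Smoc2 0.63, Synpo 0.58 and Lgals3bp 0.53. The largest negative differences were Cxcl5 -2.15, Hipk2 -1.86, Hbb-bt -1.56, Ccl7 -1.45, Esm1 -1.40 and Mir6236 -1.08. Next came Mmp27 -1.06, Syne3 -0.81, Ifit1bl1 -0.77, Soga1 -0.72, Slc16a10 -0.64 and Wdfy3 -0.47. The smallest was Clock -0.43.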

How the results depend on the processing

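Against 1134, 1931, 240 and 322 genes called at day 7, at day 28, for the difference and at both days in the same direction, the counts moved by over 1.5 times as follows. DESeq2 called 1707 at day 7 and 532 differences. Limma-voom with quality weights called 2154 at day 7, 445 differences and 619 at both days. Without a low-count filter there were 682 at day 7, 146 differences and 209 at both days. The cardiomyocyte covariate gave 1769 at day 7 and 545 differences. Summing libraries of a group whose names begin with the same number gave 290 at day 7, 300 at day 28, 2 differences and 108 at both days, with fewer units per group by construction. All 240 differences kept their sign there, which the reuse of the same libraries makes likely. Leaving out the libraries that stand apart, chosen after the data were seen, gave 152 differences. In the other cases the cause was not tested. RLE scaling, all 6 groups in the fit and the removed GC trend left each of the 4 counts within 1.5 times, as did a fit of each day alone, which gives no difference. Limma-voom gave 233 positive and 212 negative differences against 166 and 74. The day 7 split of 548 higher and 586 lower was 1227 and 927 in limma-voom and 211 and 79 with the summed libraries, and the day 28 split of 1284 and 647 was 239 and 61 with the summed libraries.

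Leaving out 1 library at a time gave 581 to 1883 calls at day 7 (lowest without type 2 diabetic replicate 3, highest without non-diabetic replicate 7), 1403 to 2367 at day 28 (lowest without type 2 diabetic replicate 4), 124 to 515 differences (lowest without type 2 diabetic replicate 3 at day 7, highest without non-diabetic replicate 7 at day 7) and 205 to 412 at both days (lowest without non-diabetic replicate 2 at day 7). Of the 40 named genes with a called difference, 17 stayed called in each single-library omission and each alternative but the summed libraries, where Hipk2 alone of the 40 was called. No named gene called in the fit of 37 libraries changed sign in any alternative, but the alternatives reuse the libraries from which the calls were made.

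Replicate numbers did not pair the libraries: of 18 same-numbered pairs, 8 correlated over 0.1, with a range of -0.41 to 0.27, and 4 pairs correlated best with their own number. With a replicate block, 128 differences, 1049 genes at day 7, 1398 at day 28 and 314 at both days were called.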

Other observations

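Across the 19531 genes tested, the type 2 diabetic effects at day 7 and day 28, which share no library, had a Pearson r of 0.34 and a Spearman rho of 0.28, given as a description, since genes are not independent. Of the genes that rose at day 7, 83.4% had an estimate above 0 at day 28, against 46.5% of all genes tested, and of those that fell at day 7, 66.2% had an estimate below 0, against 53.2%. Complement genes rose in 2 of 17 at day 7 and 7 of 17 at day 28, with medians of 0.24 and 0.47. Genes of the unfolded protein and integrated stress responses rose in 4 of 18 and 3 of 18. NRF2 targets, which answer oxidative stress, rose in 2 of 14 at day 7 and in 0 at day 28. Sterol synthesis genes fell in 1 of 20 and 3 of 20, and iron handling genes gave 2 rises and 2 falls of 11 at day 28. No difference between the days was called in these 5 lists, against 1.23% of genes tested. Over all genes tested, 2.81% rose and 3% fell at day 7, and 6.57% rose and 3.31% fell at day 28.

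The share of counts from mitochondrial genes had medians of 5.12% and 5.72% in non-diabetic and type 2 diabetic tissue at day 7 and of 17.42% and 16.18% at day 28, a gap between days that cannot be told apart from the sequencing project.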
